A study of Bos taurus with 9 samples.

Results

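Complement is the set of plasma proteins, cell-surface inhibitors and receptors that marks microbes and damaged cells for removal, and most of its soluble parts are made in the liver. The genes described here are 35 complement components and regulators among the 28786 genes listed in the count table, picked by symbol for what they encode. No measured value entered this rule, but earlier results of these data were known when the genes were chosen. They fall into the C1 complex (5 genes), the lectin pathway (6), C2, C3, C4 and C5 (4), the alternative pathway (3), the terminal complex (6), soluble inhibitors (6), membrane inhibitors (3) and the anaphylatoxin receptors (2). Their mRNA was measured by poly(A) RNA-seq of liver biopsies of lactating Holstein cows in 3 groups: thermoneutrality (TN), heat stress (HS), and pair-fed (PF), which means thermoneutral housing with feed restricted to the intake of the heat-stressed cows. Each group held 3 cows, with 1 biopsy and 1 library per cow, and a cow is named here by its group and its replicate number in the labels (TN 1, for example). The labels name no introduced allele or drug treatment and do not give ages. According to the study's methods, the biopsy site was anesthetized with lidocaine. HS against TN therefore joins heat with lower intake, HS against PF compares heat at matched intake, and PF against TN compares intake at thermoneutrality. By the study's methods the groups also differed in average days in milk, lowest in TN and highest in PF. The comparisons cannot tell this apart from heat or intake. A biopsy holds hepatocytes together with macrophages, endothelial cells and other cells, so fewer cells of a type and less RNA per cell cannot be told apart.

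The complement cascade is entered in different ways. In the classical pathway C1q binds antibody or a damaged surface and its proteases C1r and C1s cut C4 and C2, in the lectin pathway mannan-binding lectin, ficolins and collectins bind sugars and act through the MASP proteases, and in the alternative pathway factor B, factor D and properdin amplify C3 that has been deposited. All routes meet at C3 and C5, whose small fragments are the anaphylatoxins, and end in the membrane attack complex of C5b to C9, while inhibitors in plasma and on cells restrain each step. Hepatocytes secrete most of the plasma components, several of them more strongly in an acute phase response, whereas C1q comes mainly from macrophages and related myeloid cells and properdin from leukocytes.

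Levels are given in CPM, the reads counted on a gene scaled to a common library total, after TMM normalization, a correction for differences in library composition. CPM depends on gene length, so levels were compared between cows and not between genes. The libraries held 16874444 to 22557047 counts. The groups were compared in pairs, on 6 libraries each, by a quasi-likelihood F test (edgeR). The false discovery rate (FDR) is the p-value after Benjamini-Hochberg adjustment over every gene in the test, and genes were called differentially expressed (DEGs) at an FDR below 0.1 together with a fold change (FC) above 1.5. Log2 FCs stand with their standard error (SE), and group levels are means ± SD with n = 3 cows. The p-values of these tests rest on the spread between cows within the groups compared. These are 6 cows in a pair, and 9 where all 3 groups were tested together. An exact permutation test of 3 cows against 3 cannot go below p = 0.1, so the fit across all genes was used throughout.

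One library stood apart. TN 1 had the lowest level of all 9 cows in 22 of the 35 complement genes (62.9%), against 26.9% of the 15073 genes that passed the count filter in all 9 libraries, and it was the highest cow in 0 of them. The median complement gene lay 0.57 on the log2 scale below its mean over the 9 cows in TN 1 (-0.57), between -0.15 and 0.14 in the other TN cows, the PF cows and HS 1, and at 0.30 in HS 2 and 0.36 in HS 3. The summed level of 10 hepatocyte markers was 17739 CPM in TN 1 against 57028 to 124963 CPM in the other cows, and albumin (*ALB*) was 8768 CPM there against at least 33905 CPM elsewhere. TN 1 was the lowest cow for 6 of the 10 markers, while for the rest, *APOB* and *TAT* among them, another cow was lowest. TN 1 also had the largest share of its counts on the 13 mitochondrial protein-coding genes, 22.2%, while the other TN cows had 13.6% and 18.3%, the PF cows 6.90 to 7.79% and the HS cows 3.84 to 5.68%. The part of these shifts in the results below was not tested. For the members described singly in HS against TN or PF against TN, the log2 FC without TN 1 is given beside the one with it where TN 1 was the lowest cow and the FC with it was over 1.5.

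The 35 genes together took 2.37%, 4.53% and 3.66% of all counts in TN 1, 2 and 3, 4.31%, 4.45% and 4.71% in the PF cows, and 4.64%, 5.15% and 5.33% in the HS cows. Every HS cow thus lay above every TN cow, and the lowest HS cow was below the highest PF cow. The 95% Wilson interval of each share lay within 0.0106 percentage points on either side, which covers counting error only. Of the counts that were not mitochondrial, the shares ranged over 3.05 to 5.24% for TN, 4.63 to 5.11% for PF and 4.91 to 5.55% for HS cows, and the TN and HS ranges overlapped.

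**Figure D1:**
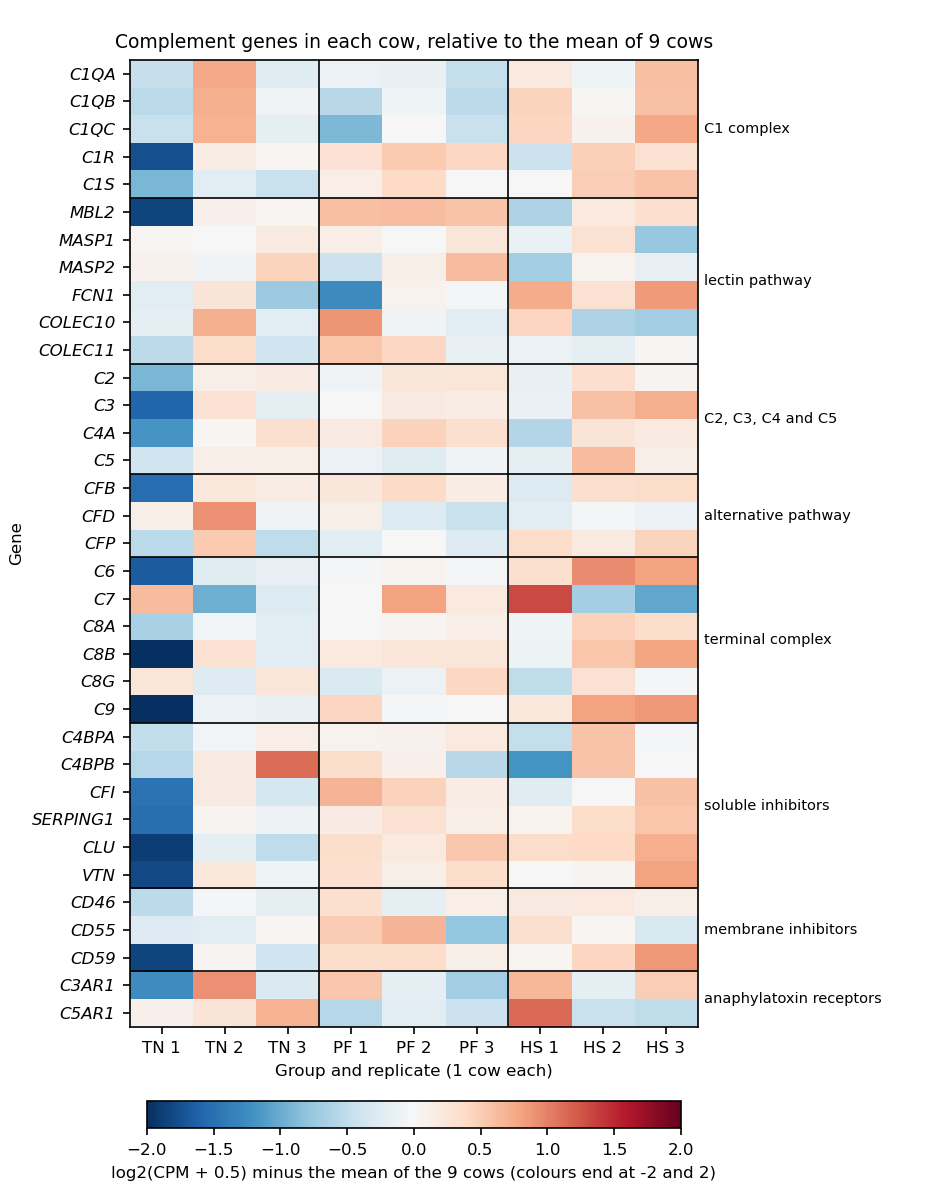
Levels of the 35 complement genes (rows, grouped by role) in each of the 9 cows (columns), as log2(CPM + 0.5) minus the mean of the gene over the 9 cows. Blue is below the mean, red above, and the colours end at -2 and 2. The column of TN 1 holds the lowest value in 22 of the 35 rows.

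In HS against TN, 0 of the 35 complement genes were DEGs by edgeR, where 0.0892% of the 14582 genes tested were. At an unadjusted edgeR p under 0.05 there were 2, *C6* and *CLU*, both higher in HS, which is 5.71% of the members, beside 4.13% of all genes higher in HS and 5.23% lower. By sign, 28 of the 35 log2 FCs were above 0, against 49.3% of all genes, and their median was 0.34, against -0.01 for all genes. Without TN 1 the count was 20 of 35 and the median 0.11. The FC exceeded 1.5 upwards in 10 members and downwards in 0, against 9.89% and 13.1% of all genes, and upwards in 7 members without TN 1. In 7 members every HS cow lay above every TN cow (*C1S*, *FCN1*, *C6*, *C9*, *SERPING1*, *CLU* and *CD46*) and in 0 members below, against 8.37% of all genes above and 7.7% below.

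In HS against PF, the comparison at matched intake, 0 of 35 members were DEGs by edgeR, beside 0.0276% of 14510 genes. An unadjusted edgeR p under 0.05 was found in 4 members, *C1QB*, *C1QC*, *CFP* and *C6*, all higher in HS, beside 3.07% of all genes higher and 2.25% lower. The median log2 FC was 0.06, with 20 genes above 0 and 15 below, beside 50.9% of all genes above 0. The HS and PF cows did not overlap in 7 members, which were higher in HS for *C1QA*, *C1QB*, *C1QC*, *FCN1*, *CFP* and *C6* and lower for *MBL2*, beside 5.95% of all genes higher and 4.58% lower. The FC exceeded 1.5 in 5 members, all higher in HS, beside 9.26% of all genes upwards and 6.82% downwards.

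In PF against TN, edgeR called 0 of 35 members and 0% of 14580 genes. An unadjusted edgeR p under 0.05 was found in *CLU*, higher in PF, and *C5AR1*, lower in PF, which are 2 members, beside 2.99% of all genes higher and 3.89% lower. The median log2 FC was 0.35, with 23 members above 0, beside a median of -0.01 and 48.8% for all genes, and it was 0.09 without TN 1. All PF cows lay above all TN cows in 9 members (*C1R*, *C1S*, *MBL2*, *C6*, *C8A*, *C9*, *SERPING1*, *CLU* and *CD59*) and below them in *C5AR1*, beside 6.81% and 6.36% of all genes. An FC over 1.5 was found upwards in 9 members and downwards in 1, beside 9.33% and 13.4% of all genes, and upwards in 2 members without TN 1. DESeq2, with which the study itself called DEGs, among them *CLU* in HS against TN, was run on the same pairs as an alternative. It called *C6* and *CLU* in HS against TN, 0 members in HS against PF and 0 in PF against TN. Of all genes to which it gave an adjusted p, it called 1.75%, 0.771% and 0.555% in the same order. These comparisons share cows, so they are not independent of each other.

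**Figure D2:**
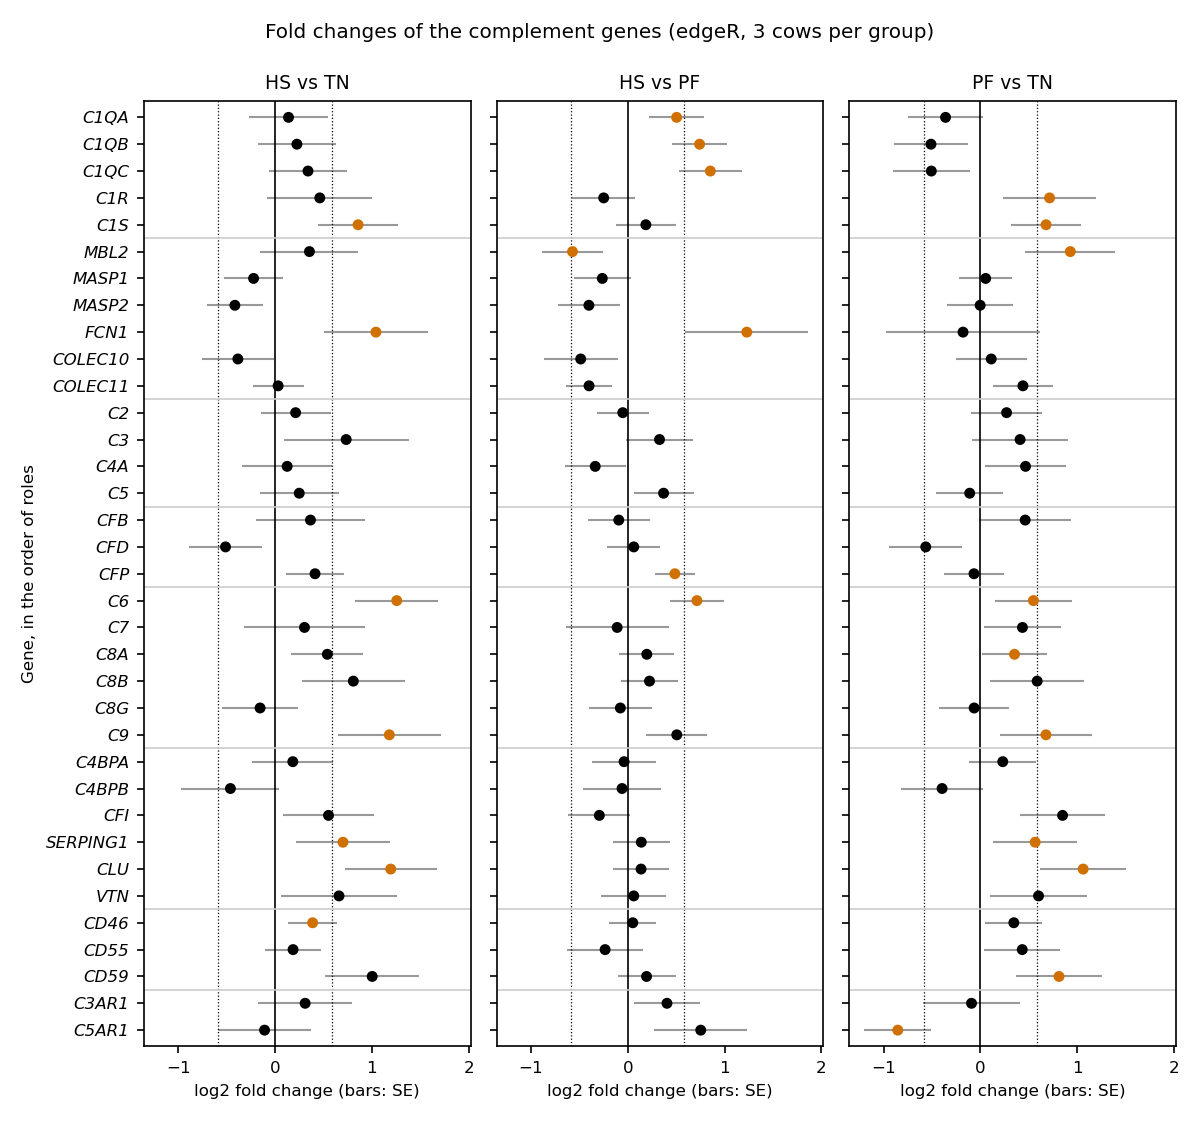
Log2 FC (horizontal axis) of each of the 35 complement genes (vertical axis, in the order of their roles) in the 3 comparisons, from edgeR with 3 cows per group; bars are the SE and dotted lines an FC of 1.5. Orange marks genes whose groups did not overlap in CPM, which were 7 in HS against TN, 7 in HS against PF and 10 in PF against TN.

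The C1 complex joined genes with different patterns. C1q, the recognition molecule of the classical pathway, is built from chains encoded by *C1QA*, *C1QB* and *C1QC*. *C1QA* was at 354, 823 and 413 CPM in TN 1, 2 and 3, 449, 440.2 and 351 CPM in PF 1, 2 and 3 and 557, 463 and 745 CPM in HS 1, 2 and 3. *C1QB* was at 339, 821 and 473 CPM in TN, 336, 465 and 346 CPM in PF and 672, 504 and 748 CPM in HS cows, in the same order, and *C1QC* at 332, 734 and 401, 243, 458 and 332 and 612, 479.8 and 779.6 CPM. For each chain every HS cow was above every PF cow, while TN 2 was the highest cow for *C1QA* and *C1QB* and overlapped the HS cows for *C1QC*. The log2 FC of HS against PF was 0.50 (SE 0.29) for *C1QA*, 0.74 (SE 0.29) for *C1QB* and 0.85 (SE 0.32) for *C1QC*. The unadjusted edgeR p was under 0.05 for *C1QB* and *C1QC* but not for *C1QA*, and the FDRs were 0.988, 0.821 and 0.806, so that none passed. Against TN, the HS cows differed by log2 FCs of 0.14 (SE 0.41), 0.23 (SE 0.40) and 0.34 (SE 0.40), each smaller than its SE, and without TN 2 these were 0.61, 0.65 and 0.76. Without TN 1 they were -0.073, -0.014 and 0.14, so that the direction against TN turned for *C1QA* and *C1QB*. PF 1 had a different mix of the chains from the other cows, with 43.6% of the summed C1q CPM from *C1QA* and 23.7% from *C1QC*, where the other 8 cows had 30.3 to 34.6% and 30.9 to 34.3%.

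As a sum, markers of macrophages moved broadly with the C1q chains, but not every marker did. The summed level of 15 macrophage markers was 1068, 2181 and 1331 CPM in TN 1, 2 and 3, 1408, 1679 and 1004 CPM in PF 1, 2 and 3 and 2344, 1539 and 2522 CPM in HS 1, 2 and 3, and that of the C1q chains was 1025, 2378 and 1286 CPM, 1028, 1364 and 1029.5 CPM, and 1841, 1446 and 2272 CPM. Both sums were highest in TN 2, HS 1 and HS 3. In HS against PF, 13 of the 15 markers had a log2 FC above 0, with a median of 0.59, and 7 had an unadjusted edgeR p under 0.05, all higher in HS. Among them were *CD68*, a lysosomal membrane protein of macrophages, with a log2 FC of 0.96 (SE 0.28, edgeR FDR 0.608), and *MARCO*, a scavenger receptor, with 1.30 (SE 0.44, edgeR FDR 0.679). None of the 15 markers was at 0 in all cows. The C1q sum divided by the macrophage sum was 0.786, 0.940 and 0.901 in the HS cows and 0.730, 0.812 and 1.03 in the PF cows, so this ratio overlapped between HS and PF. In TN 1, 2 and 3 it was 0.960, 1.09 and 0.967. Every TN cow was thus above every HS cow in this ratio, though TN 1 exceeded HS 2 only narrowly. PF 3 lay within the TN range. The macrophage sum weighs each marker by its level, and the marker *CD14* was itself higher in every PF and HS cow than in every TN cow. Its log2 CPM was 5.83, 7.20 and 7.20 in TN, 7.96, 8.36 and 7.90 in PF and 7.68, 7.38 and 7.97 in HS cows. Whether the separation of TN from HS in this ratio rests on *CD14* was not tested. Whether the number of macrophages accounts for the C1q difference was not tested.

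**Figure D3:**
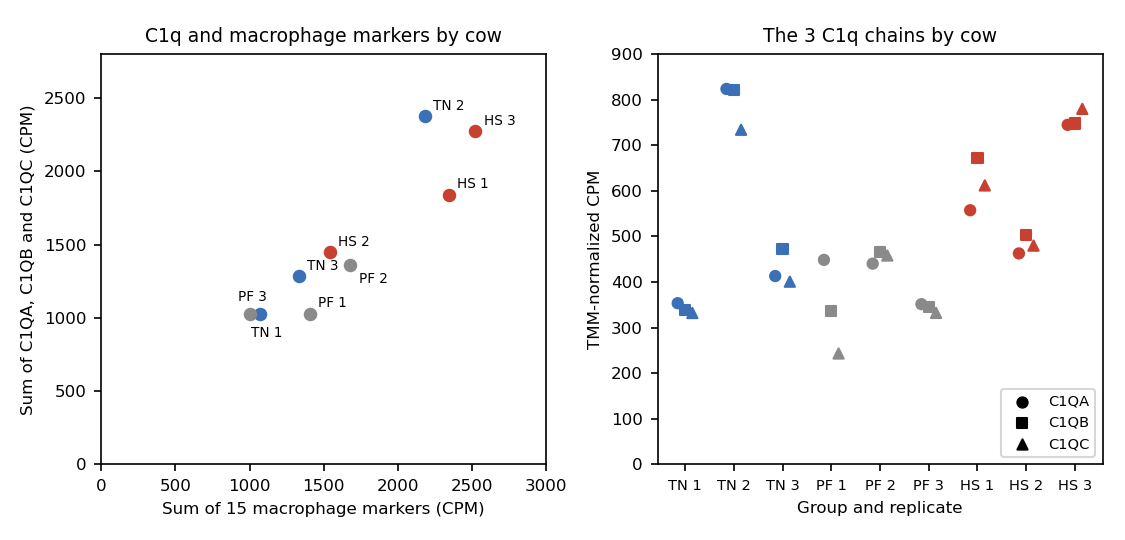
Left, the summed CPM of *C1QA*, *C1QB* and *C1QC* (vertical axis) against the summed CPM of 15 macrophage markers (horizontal axis), 1 point per cow (blue TN, grey PF, red HS). Right, each chain by cow in CPM. The cows with the highest C1q sums, TN 2, HS 3 and HS 1, also had the highest macrophage sums.

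The proteases *C1R* and *C1S*, which C1q activates in turn, were lowest in TN 1. *C1R* was at 504, 1882 and 1744 CPM in TN, 2078, 2436 and 2261 CPM in PF and 1255, 2358 and 2108 CPM in HS cows. All 3 PF cows were above the TN cows, and the HS cows spread over both ranges. Its log2 FC was 0.71 (SE 0.48, edgeR FDR 0.726) in PF against TN, 0.32 without TN 1, and 0.46 (SE 0.54) in HS against TN. *C1S* was at 917, 1504 and 1274 CPM in TN, 1900.3, 2292 and 1724 CPM in PF and 1719, 2449.8 and 2586 CPM in HS cows, with every PF and HS cow above every TN cow. Its log2 FC in HS against TN was 0.86 (SE 0.41, edgeR FDR 0.532), and it lay between 0.70, without TN 1, and 1.03 when any 1 cow was left out. In PF against TN the log2 FC of *C1S* was 0.68 (SE 0.36) and 0.51 without TN 1, and in HS against PF it was 0.19 (SE 0.31).

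In the lectin pathway, *MBL2* encodes mannan-binding lectin, a plasma collectin from hepatocytes. Its level was 152, 582 and 556 CPM in TN 1, 2 and 3, 821, 830.1 and 806 CPM in the PF cows and 354, 622 and 684 CPM in the HS cows. The PF cows were nearly alike and lay above all 6 others, and the lowest cows were TN 1 and HS 1. The log2 FC was 0.93 (SE 0.46, edgeR FDR 0.709) in PF against TN, 0.53 without TN 1, and -0.57 (SE 0.31, edgeR FDR 0.977) in HS against PF. *MBL2* was the only member in which every HS cow lay below every PF cow, a difference that did not pass the test. *FCN1*, which encodes the ficolin of monocytes and neutrophils, was near the limit of detection, at 1.2, 1.8 and 0.66 CPM in TN, 0.30, 1.5 and 1.4 CPM in PF and 2.7, 1.9 and 3.0 CPM in HS cows, where 3 counts were worth 0.111 to 0.202 CPM. All HS cows were above all TN and PF cows. The log2 FC was 1.04 (SE 0.54, edgeR FDR 0.556) against TN and 1.23 (SE 0.64, edgeR FDR 0.960) against PF. The collectins *COLEC10* and *COLEC11* and the proteases *MASP1* and *MASP2*, which cut C4 and C2 once a lectin has bound, had log2 FCs between -0.49 and 0.44 over the 3 comparisons, with no unadjusted p under 0.05 and overlapping groups throughout.

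*C3*, on which all pathways converge, ranged from 4245 CPM in TN 1 to 20981 CPM in HS 3. It was at 15555 and 11142 CPM in TN 2 and 3, at 12609, 14413 and 14095 CPM in PF 1, 2 and 3 and at 11594 and 19204 CPM in HS 1 and 2. HS 2 and HS 3 were above the other 7 cows, and HS 1 lay within the TN and below the PF range. The group levels were 10314 ± 5700.2 CPM in TN, 13706 ± 963 CPM in PF and 17259 ± 4986 CPM in HS cows. The log2 FC of HS against TN was 0.73 (SE 0.65, edgeR FDR 0.705), 0.37 without TN 1 and 1.16 without TN 2, and that against PF was 0.33 (SE 0.35, edgeR FDR 1.00). *C2* and *C4A*, whose products form the C3-cutting enzyme of the classical and lectin pathways, and *C5*, the start of the terminal pathway, had log2 FCs between -0.34 and 0.47, overlapping groups and no unadjusted p under 0.05 in any comparison. TN 1 was the lowest cow for all 4 of these genes.

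Factor B (*CFB*), the protease of the alternative pathway, was at 1505, 5015 and 4805 CPM in TN, 5073, 5702 and 4831 CPM in PF and 3581, 5492 and 5606 CPM in HS cows. Apart from TN 1 and HS 1, the cows lay between 4805 and 5702 CPM in all 3 groups. Its log2 FC of HS against TN was 0.37 (SE 0.56, edgeR FDR 0.832) and turned to -0.0072 without TN 1, and that of HS against PF was -0.09 (SE 0.32). Properdin (*CFP*), which steadies the alternative pathway enzyme on a surface and is made by leukocytes, was at 28.5, 59.6 and 29.1 CPM in TN, 35.8, 41.5 and 34.7 CPM in PF and 53.5, 46.9 and 56.9 CPM in HS cows. Every HS cow was above every PF cow, while TN 2 was the highest of all. The log2 FC of HS against PF was 0.49 (SE 0.21, edgeR FDR 0.908). Beside *CFP* and *FCN1*, 15 lymphocyte and neutrophil markers summed to 145 to 195 CPM in TN, 136 to 162 CPM in PF and 176 to 266 CPM in HS cows, and in HS against PF 9 of the 15 had a log2 FC above 0 and 4 an unadjusted edgeR p under 0.05, all higher in HS. Their part in the values of *CFP* and *FCN1* was not tested. Factor D (*CFD*), which cuts factor B, had log2 FCs of -0.51 (SE 0.38) in HS against TN, -0.56 (SE 0.38) in PF against TN and 0.06 (SE 0.28) in HS against PF, and its groups overlapped.

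In the terminal complex, *C6*, which joins C5b and C7 to begin the membrane attack complex, was at 111, 299 and 314 CPM in TN 1, 2 and 3, 342, 369 and 347 CPM in PF 1, 2 and 3 and 438, 683 and 619.7 CPM in HS 1, 2 and 3. No group overlapped another, with TN lowest and HS highest. The means were 241 ± 113 CPM in TN, 353 ± 14.3 CPM in PF and 580.2 ± 127 CPM in HS cows. The log2 FC was 1.26 (SE 0.43, edgeR FDR 0.456) in HS against TN, 0.71 (SE 0.28, edgeR FDR 0.821) in HS against PF and 0.55 (SE 0.40, edgeR FDR 0.741) in PF against TN, where it was 0.21 without TN 1. In HS against TN it stayed between 0.92, without TN 1, and 1.49, without TN 3. DESeq2 put *C6* past the DEG criteria in HS against TN with a log2 FC of 1.28 and an FDR of 0.0465.

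*C9*, whose product polymerizes into the pore, was at 334, 1219.7 and 1197 CPM in TN, 1792, 1292 and 1313 CPM in PF and 1541, 2312 and 2413 CPM in HS cows. All PF and HS cows were above the TN cows, and HS 1 lay within the PF range. The log2 FC of HS against TN was 1.18 (SE 0.53, edgeR FDR 0.522), between 0.79, without TN 1, and 1.44 when any 1 cow was left out. *C8B*, the beta chain of C8, was at 117, 580.4 and 401 CPM in TN, 536, 557 and 555 CPM in PF and 438, 686 and 809 CPM in HS cows, which is the largest ratio of highest to lowest cow of any member except *FCN1* and *C9*. HS and TN cows overlapped, since TN 2 was above HS 1, and the log2 FC was 0.81 (SE 0.53, edgeR FDR 0.626) and 0.39 without TN 1. *C7*, which other cells than hepatocytes also make, was at 114, 37.1 and 60.5 CPM in TN, 74.0, 129 and 83.6 CPM in PF and 185, 45.3 and 35.4 CPM in HS cows. HS 1 was the highest and HS 3 the lowest cow, so that the HS group spanned the whole range, and the log2 FC of HS against TN was 0.30 (SE 0.62). The C8 chains *C8A* and *C8G* had log2 FCs between -0.15 and 0.54, and the PF cows were all above the TN cows for *C8A*, at 1024, 1066 and 1117 CPM against 649, 989 and 873 CPM.

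**Figure D4:**
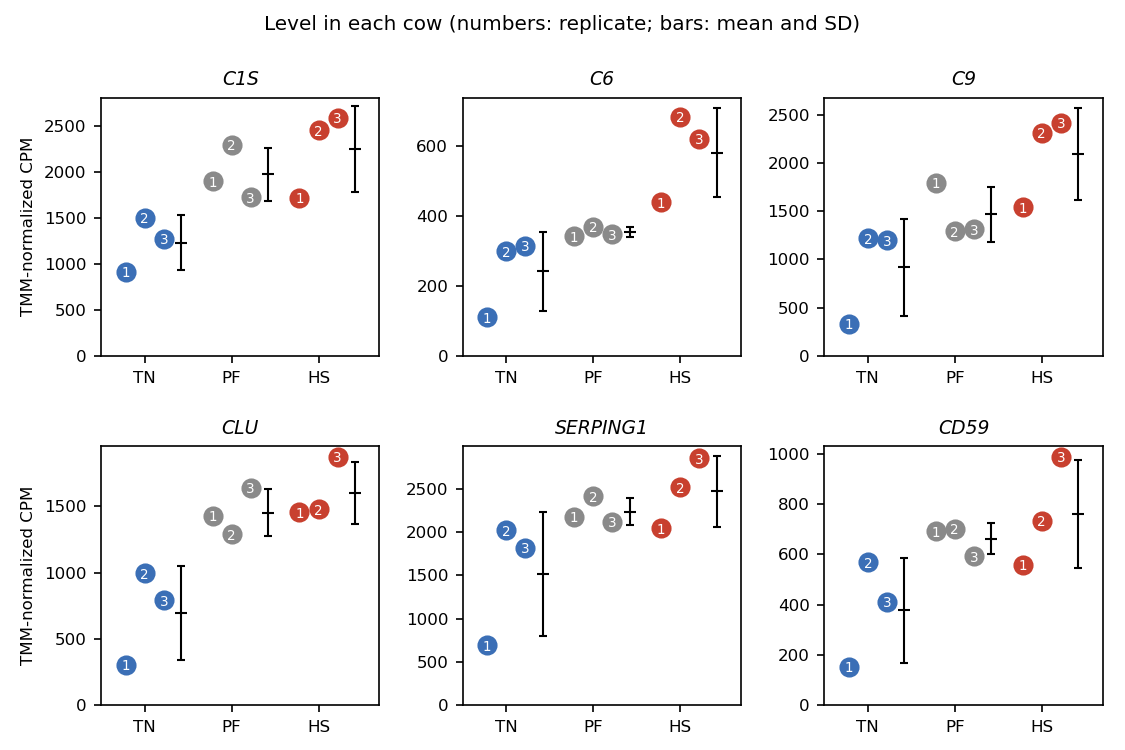
TMM-normalized CPM (vertical axis, from 0) of 6 complement genes in the TN, PF and HS cows. Points are cows with their replicate number, and bars are the mean and SD of 3 cows. The groups do not overlap for *C6*, and TN 1 is the lowest cow in all 6 panels.

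Among the soluble inhibitors, clusterin (*CLU*), a chaperone-like plasma protein that also blocks the forming membrane attack complex, was at 303, 996 and 789 CPM in TN 1, 2 and 3, 1429, 1287 and 1640.2 CPM in PF 1, 2 and 3 and 1454, 1479 and 1873 CPM in HS 1, 2 and 3. All PF and HS cows were above all TN cows, and PF and HS overlapped. The means were 696 ± 356 CPM in TN, 1452 ± 178 CPM in PF and 1602 ± 235 CPM in HS cows. The log2 FC was 1.19 (SE 0.48, edgeR FDR 0.495) in HS against TN and 1.06 (SE 0.44, edgeR FDR 0.708) in PF against TN, and without TN 1 these were 0.84 and 0.71. At matched intake the log2 FC of HS against PF was 0.14 (SE 0.29, edgeR FDR 1.00). DESeq2 gave *CLU* a log2 FC of 1.22 with an FDR of 0.0743 in HS against TN, and 1.07 with an FDR of 0.273 in PF against TN.

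*SERPING1*, the C1 inhibitor that stops C1r, C1s and the MASPs, was at 689.8, 2022 and 1819.8 CPM in TN, 2179, 2412 and 2118 CPM in PF and 2041, 2517 and 2855 CPM in HS cows. Every PF and HS cow was above every TN cow, although HS 1 exceeded TN 2 only narrowly. The log2 FC of HS against TN was 0.70 (SE 0.49, edgeR FDR 0.638), and 0.36 without TN 1. Factor I (*CFI*), which inactivates C3b and C4b, was at 346, 1083 and 754 CPM in TN, 1545, 1324 and 1064 CPM in PF and 815, 963 and 1442 CPM in HS cows. TN 2 lay just above PF 3, the other PF cows were above all TN cows, and the log2 FC of PF against TN was 0.85 (SE 0.44, edgeR FDR 0.709) and 0.52 without TN 1. Vitronectin (*VTN*), an adhesive plasma protein that keeps the terminal complex from inserting into membranes, was at 1288, 5217 and 4267 CPM in TN, 5682, 4874 and 5773 CPM in PF and 4508, 4701 and 7895 CPM in HS cows. TN 2 lay within the HS range, and the log2 FC of HS against TN was 0.66 (SE 0.60, edgeR FDR 0.713) and 0.26 without TN 1. *C4BPB*, the beta chain of the C4b-binding protein, was at 87.7, 147 and 284 CPM in TN, 167, 139.5 and 88.2 CPM in PF and 56.3, 193 and 131 CPM in HS cows. TN 3 was its highest and HS 1 its lowest cow, and the log2 FC of HS against TN was -0.46 (SE 0.51). The alpha chain, *C4BPA*, had log2 FCs of 0.18 in HS against TN, -0.04 in HS against PF and 0.23 in PF against TN, each smaller than its SE.

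Of the inhibitors on cell membranes, *CD59*, which keeps C9 from forming a pore in host cells, was at 152, 568 and 412 CPM in TN, 692, 702 and 592 CPM in PF and 558, 734 and 988 CPM in HS cows. The PF cows were all above the TN cows, and HS 1 was slightly below TN 2. The log2 FC was 1.00 (SE 0.49, edgeR FDR 0.536) in HS against TN and 0.81 (SE 0.44, edgeR FDR 0.709) in PF against TN, and without TN 1 these were 0.63 and 0.44. *CD46*, a cofactor for the cleavage of C3b and C4b, was at 113, 157 and 141 CPM in TN, 202, 143 and 178 CPM in PF and 183, 185 and 176 CPM in HS cows. The HS cows were all above the TN cows, while PF 1 was the highest of all 9 cows and the PF cows overlapped both groups. Its log2 FC of HS against TN was 0.39 (SE 0.25, edgeR FDR 0.625). *CD55*, which takes apart C3-cutting enzymes, ranged from 4.08 to 12.1 CPM, both in PF cows, and its groups overlapped.

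Both anaphylatoxin receptors are found mostly on myeloid cells. *C3AR1* was at 6.22, 29.8 and 12.6 CPM in TN, 22.7, 13.5 and 9.38 CPM in PF and 24.8, 13.5 and 22.1 CPM in HS cows, and TN 1 and TN 2 were the lowest and the highest cow. *C5AR1* was at 5.68, 6.42 and 8.88 CPM in TN, 3.37, 4.47 and 3.77 CPM in PF and 12.1, 3.74 and 3.57 CPM in HS cows. The PF cows were all below the TN cows, while HS 1 was the highest cow and HS 2 and HS 3 lay among the PF cows. The log2 FC of *C5AR1* in PF against TN was -0.85 (SE 0.35, edgeR FDR 0.708), and in HS against PF it was 0.75 (SE 0.48). Of the 15 macrophage markers, 11 had a log2 FC below 0 in PF against TN, with 1 unadjusted edgeR p under 0.05 in each direction.

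When the 3 groups were tested together in 1 edgeR fit of the 9 libraries, 0 of 35 members had an FDR under 0.1, beside 0.0464% of 15073 genes. *C6* (FDR 0.556) and *CLU* (FDR 0.595) were the members with an unadjusted edgeR p under 0.05, beside 7.86% of all genes. The likelihood ratio test of DESeq2 put the same 2 members under an FDR of 0.1, with 0.0714 for *C6* and 0.0970 for *CLU*, beside 1.89% of its genes.

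Leaving out single cows moved these counts. In HS against TN the count of members with an unadjusted edgeR p under 0.05 was 2 without TN 1, 6 without TN 2, 1 without TN 3, 4 without HS 1, 0 without HS 2 and 1 without HS 3, and the count of DEGs stayed at 0. These are 5.71%, 17.1%, 2.86%, 11.4%, 0% and 2.86% of the members. In the same order, 6.48%, 13.0%, 7.34%, 8.48%, 7.53% and 5.83% of all genes had such a p, so the share of all genes moved too. In HS against PF the count of members was 1 without PF 1 (*C3AR1*), 3 without PF 2, 1 without PF 3 (*COLEC11*, lower in HS), 5 without HS 1, 2 without HS 2 (*C1QB* and *C1QC*) and 2 without HS 3 (*C6* and *MBL2*). The shares of all genes were 4.43%, 6.12%, 7.16%, 5.48%, 4.11% and 5.34% in the same order. In PF against TN the count of members was 5 without TN 1, 6 without TN 2, 0 without TN 3 or PF 1, and 1 without PF 2 (*C5AR1*) or PF 3 (*CD55*). Beside these stood 4.35%, 9.96%, 5.25%, 4.75%, 4.43% and 9.50% of all genes without TN 1, TN 2, TN 3, PF 1, PF 2 and PF 3. DESeq2 called, in HS against TN, 2 members without TN 1 (*C6* and *CLU*), 6 without TN 2 (*C1S*, *CFP*, *C6*, *C9*, *CLU* and *CD59*), 1 without TN 3 (*C6*), 2 without HS 1 (*C1S* and *C6*), and 0 without HS 2 or without HS 3. Of all genes it called 184, 534, 171, 218, 171 and 204 in the same order, beside 270 with all cows. In PF against TN it called 5 without TN 2 (*C1S*, *MBL2*, *CFI*, *CLU* and *CD59*) and 0 when any other cow was left out. There the total over all genes was 341 without TN 2 and 58 to 146 without any other cow, beside 91 with all cows. In HS against PF it called *C1QC* without PF 2, *C6* and *C7* without HS 1, and 0 members otherwise. The total over all genes was 135 without PF 2, 98 without HS 1 and 89 to 152 otherwise, beside 122 with all cows. These DESeq2 fits with cows left out were added after the data had been seen. In HS against TN, 9 of the 10 hepatocyte markers also had a log2 FC above 0, with a median of 0.52 and 0 DEGs. This median was 0.092 without TN 1 (7 of 10 above 0) and -0.035 without HS 3 (4 of 10 above 0). Their part in the values of the plasma components was not tested.

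**Figure D5:**
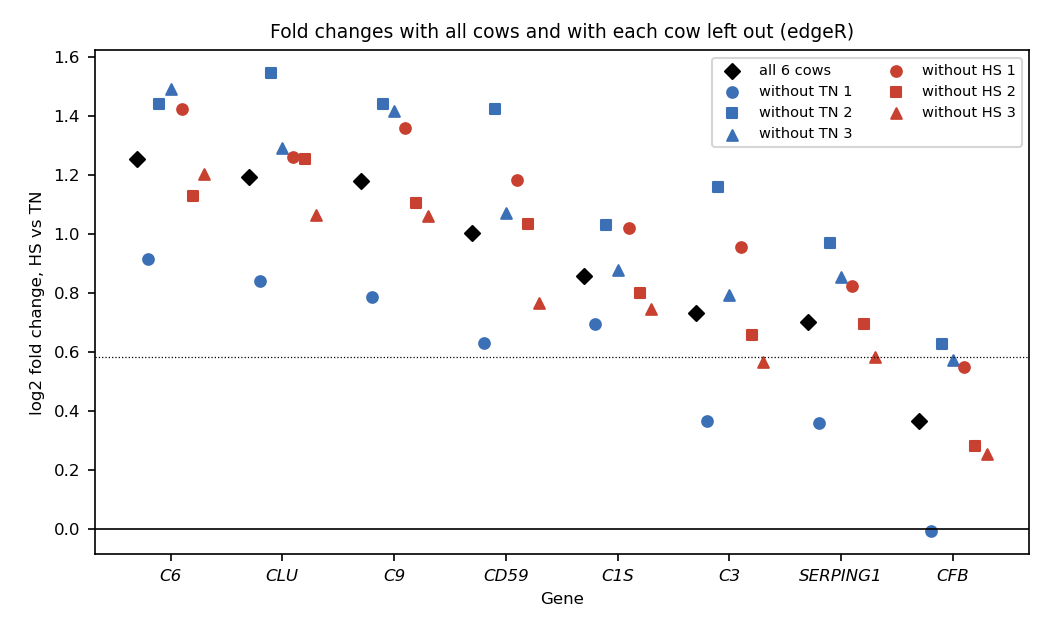
Log2 FC of HS against TN (vertical axis) from edgeR for 8 complement genes, with all 6 cows (black diamonds) and with each cow left out. The dotted line is an FC of 1.5. Leaving out TN 1 (blue circles) gave the lowest value for each of the 8 genes.

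The cows of a group differed in these genes by unequal amounts. The median coefficient of variation (SD over mean) of the 35 members was 46.2% over the TN cows, 13.0% over the PF cows and 25.6% over the HS cows, beside 27.8%, 26.2% and 23.2% for all genes that passed the filter. In TN the spread was thus above, and in PF below, that of the median gene. Over TN 2 and TN 3 alone, a setting added after the data had been seen, the median was 22.5% for the members and 15.4% for all genes.

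The members were also compared with *HP*, which encodes haptoglobin, a haemoglobin-binding acute phase protein, because its level varied widely among the cows. It was at 14.6, 134 and 846 CPM in TN, 9.17, 1103 and 210.4 CPM in PF and 1723, 19381 and 234 CPM in HS cows, so that the groups overlapped. Over the 9 cows, 0 of 35 members correlated with *HP* at an adjusted exact permutation p under 0.05 and 0 at an unadjusted one (Pearson's r of log2 values, two-sided, adjusted over 15072 genes), beside 0% and 7.01% of all genes. The coefficient was above 0 in 31 of 35 members, with a median of 0.36, beside 52.9% of genes and a median of 0.03. Without TN 1, it was above 0 in 21 members and the median was 0.11. Within groups, as deviations from the group means, the median was 0.29. *C6* had the highest coefficient, r = 0.67 (exact permutation p = 0.0502, adjusted p = 0.697) and Spearman's rho = 0.73 (exact permutation p = 0.0311). Without the 2 cows farthest from the median of *HP*, PF 1 and HS 2, its r was 0.73, and within groups it was 0.53 (exact permutation p = 0.222). Within groups *C2* had the highest coefficient, r = 0.70 (exact permutation p = 0.0463), and it was the 1 member with an unadjusted p under 0.05 there, beside 4.37% of all genes, while 0 members passed after adjustment. In the correlation over all 9 cows, *C5* (r = 0.64) and *C2* (r = 0.61) followed *C6*, and *COLEC10* had the lowest coefficient, -0.47.

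A list of 28 other complement genes was examined in the same fits. Of these, 20 were found in the table by symbol and 15 passed the count filter, and edgeR called 0 of the 15 in each comparison. In HS against TN 10 of the 15 had a log2 FC above 0, and *ITGAX*, the alpha chain of complement receptor 4, was the 1 with an unadjusted p under 0.05, where there were 0 without TN 1. It was at 12.4, 9.27 and 8.65 CPM in TN, 5.80, 4.69 and 5.61 CPM in PF and 3.47, 8.24 and 4.37 CPM in HS cows, with every PF and HS cow below every TN cow and log2 FCs of -0.94 (SE 0.36, edgeR FDR 0.487) in HS against TN and -0.92 (SE 0.30, edgeR FDR 0.697) in PF against TN. In HS against PF the 1 such gene was *VSIG4*, the complement receptor of liver macrophages, at 18.1, 11.6 and 14.2 CPM in HS and 8.94, 7.32 and 4.89 CPM in PF cows with no overlap. Its log2 FC was 1.05 (SE 0.30, edgeR FDR 0.587). As log2(CPM + 0.5), *VSIG4* was at 2.90, 3.88 and 2.97 in TN and 4.22, 3.59 and 3.88 in HS cows, so TN 2 lay within the HS range.

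Some members lie close to or over other genes, which could share reads with them, since the strand and multi-mapping settings of the counting are not given in the sources used here. RefSeq's ARS-UCD2.0 gene models, which belong to another assembly than the alignment and were used for names alone, held all 35 members, and 11 of them overlapped another annotated gene. For 6 of them this was a protein-coding gene: *MASP2* overlapped *TARDBP*, *COLEC10* overlapped *TNFRSF11B*, *CFD* overlapped *MED16*, *C4BPA* and *C4BPB* overlapped each other, and *CFI* overlapped a gene without a name. *C4A* overlapped the pseudogene *CYP21A1P* and belongs to a duplicated gene, so its counts are uncertain. Another member was among the 2 nearest protein-coding genes on either side for 13 members, in the groups *C1QA*, *C1QC* and *C1QB*, *C1R* and *C1S*, *C2* and *CFB*, *C6* and *C7*, *C8A* and *C8B*, and *C4BPA* and *C4BPB*. Of these neighbours, *C6* was highest in HS 2 and *C7* in HS 1.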

How the data were processed

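Poly(A) RNA-seq was made from 1 liver biopsy of each of 9 lactating Holstein cows, 3 per group. The authors deposited raw read counts per gene, and 0 columns were left unused. According to the study's methods and the submitters' processing notes, reads were trimmed with fastp 0.23.2, aligned to ARS-UCD1.2 with STAR 2.7.9a and counted with featureCounts 2.0.3. The strand and multi-mapping settings and the annotation release are not given in the sources used here.

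Pairwise fits of 6 libraries, and a 3-group fit of all 9, were made in edgeR 4.0.16 (R 4.3.3) after TMM and filterByExpr, with glmQLFit and glmQLFTest. Benjamini-Hochberg adjustment covered every gene in a fit, and DEGs were called at an FDR below 0.1 and an FC above 1.5. DESeq2 1.42.0 was an alternative, and an adjusted p it gave as NA stayed NA. Log2 CPM had an offset of 0.5. Correlations with *HP* used all 362880 pairings and were adjusted over all genes, where the plan had named the members alone. The scripts were tested on simulated counts.

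The members and all gene lists (roles, other complement genes, cell type markers) were chosen with earlier results of these data known. Values per cow are given for members with an unadjusted p under 0.05, for those with an FC over 1.5 and groups that do not overlap, for *C1QA*, *C1QB*, *C1QC*, *C3* and *CFB*, for those whose highest cow exceeded 4 times the lowest at a mean over 5 CPM, and for those called by DESeq2. Values per cow given for *C8A*, *CD46* and the other genes shown were chosen after their values were seen. Same-numbered cows did not deviate together (correlations of deviations from group means -0.22 to 0.24), so numbers were not treated as pairs. Some genes of the list of other complement genes are not reported here by name. No sequence is shown, because no bovine sequence was used here. A count of 0 was taken to allow 3 counts. Reads carried no molecular identifiers, so intervals and this floor cover counting error only.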

Additional observations from a re-analysis of the deposited data

How the results depend on the processing

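With edgeR, 0 members were called in HS against TN, HS against PF, PF against TN and the 3-group test under each of these changes: RLE in place of TMM, library sizes without mitochondrial genes, all genes kept, a minimum of 10 counts per sample, an FDR limit of 0.05, and each cow left out. The same held for the 3 pairs with all 9 libraries in 1 fit and with glmTreat, a test of the FC threshold. With the replicate number as a block (replicate block) 0 members were also called in all 4 tests, and 6, 1, 3 and 4 had an unadjusted p under 0.05 beside 2, 4, 2 and 2 without it. The numbers do not pair the cows, so the block is given here only. The share of all genes was not counted under the block, so its member counts have no background to be read against.

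DESeq2 called 2 members in HS against TN and 2 in the 3-group test, *C6* and *CLU*, whose log2 FCs in HS against TN were 1.28 and 1.22. Leaving out 1 cow at a time, with both tools, gave 0 to 6 called members in HS against TN, 0 to 2 in HS against PF and 0 to 5 in PF against TN, where every count above 0 came from DESeq2. Of all genes, DESeq2 called 171 to 534, 89 to 152 and 58 to 341 in these fits, in the same order. The cause of the difference between the tools was not tested. The log2 FC changed sign for *C1QA* in HS against TN without TN 1 (-0.073), TN 3 (-0.012) or HS 3 (-0.067), in a range up to 0.61. Without TN 1 it did so for *C1QB* (-0.014, range up to 0.65) and *CFB* (-0.0072, range up to 0.63). In HS against PF *CFB* lay between -0.20 and 0.079, the latter without HS 1, and in PF against TN *C1QA* lay between -0.58 and 0.11, the latter without TN 2. Of the log2 FCs recomputed under all alternatives, 424 values kept their direction and their status as DEG or not. *FCN1* in HS against PF had no value under the minimum of 10 counts. The FC limit of 1.5 by itself was crossed by some of these values. In HS against TN without TN 1, the log2 FC of *C3* fell from 0.73 to 0.37 and that of *SERPING1* from 0.70 to 0.36. The correlation with *HP* called 0 members under every alternative tried. The 10 members with an FC over 1.5 in HS against TN did not reach the FDR limit with edgeR, and without TN 1 there were 7 such members, of which 0 reached it.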
